A study of Mus musculus with 6 samples.

Results

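The Cyp4a genes of the mouse encode cytochromes P450 that hydroxylate fatty acids, and they lie side by side on chromosome 4. Their chromatin was followed in liver through 30 ATAC-seq peaks, of 74076 in all (0.0405%). ATAC-seq uses a transposase that cuts DNA where chromatin is open, so that the reads over a site measure how accessible it is. The 30 peaks are those to which the deposited table of single replicates gave a gene name starting with Cyp4a, by the nearest gene start, taken in order along the chromosome. They comprise 4 peaks of Cyp4a14, 5 of Cyp4a10, 4 of Cyp4a31, 4 of Cyp4a32, 10 of Cyp4a12a, 2 of Cyp4a12b and 1 of Cyp4a29. All 30 lie within 344505 bp, from position 114937271 to 115281775 of the mm9 genome. The family was selected on the log2 differences of its peaks between the groups below, among them the largest losses of these data. Those differences are therefore given as a description, with no p-value, and nothing is inferred from how many of them passed a threshold.

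All libraries came from the liver of 8-week-old male C57BL/6J mice, a common inbred strain. The refed group (replicates 5, 7 and 8) was fasted for 12 h, beginning at 10 am, and from 10 pm was given a diet with 69% sucrose and 10% fat for another 12 h. The fasted group (replicates 1, 3 and 4) had no food for 12 h from 10 pm, and both groups were killed at 10 am. Eating, the sucrose diet and the hours of the fast differed together, and their effects cannot be told apart. Whether a library stands for a separate animal is not stated, so errors and p-values measure the spread between libraries.

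Cyp4a enzymes place a hydroxyl group on the terminal carbon of medium- and long-chain fatty acids, the entry to omega oxidation, in which the acid is turned into a dicarboxylic acid that peroxisomes then shorten. Some of them also convert arachidonic acid to 20-HETE, a regulator of vascular tone. In rodent liver Cyp4a10 and Cyp4a14 are textbook targets of PPARA, the nuclear receptor that fatty acids activate during fasting, and Cyp4a31 and Cyp4a32 are close relatives of Cyp4a10. Cyp4a12a and Cyp4a12b are near-identical copies, and Cyp4a12a is known as a male-predominant, androgen-dependent gene of liver and kidney.

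Sequence of the promoters is shown because reads were kept only where they mapped to a single place, which is harder in copied genes. RefSeq promoter sequences (GRCm38.p6, another build than that of the peaks) were matched for 2 of the 7 genes, and they are given as the 250 bases before each start, 5′ to 3′ on the plus strand. Cyp4a32 (chr4:115600688-115600937) belongs to the genes that were more closed after refeeding, and Cyp4a29 (chr4:115241794-115242043) to those that showed no such difference. Neither window stands for its group. The Cyp4a32 promoter peak had the smallest log2 difference of the promoter peaks in its group (-0.60), and the only Cyp4a29 peak lay 22937 bp from its start. Capitals mark the longest stretch that both share.
Cyp4a32: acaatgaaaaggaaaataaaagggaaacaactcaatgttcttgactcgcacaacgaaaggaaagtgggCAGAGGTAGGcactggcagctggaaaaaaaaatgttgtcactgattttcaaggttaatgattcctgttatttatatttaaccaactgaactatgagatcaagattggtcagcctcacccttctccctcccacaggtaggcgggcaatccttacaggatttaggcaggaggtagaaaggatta
Cyp4a29: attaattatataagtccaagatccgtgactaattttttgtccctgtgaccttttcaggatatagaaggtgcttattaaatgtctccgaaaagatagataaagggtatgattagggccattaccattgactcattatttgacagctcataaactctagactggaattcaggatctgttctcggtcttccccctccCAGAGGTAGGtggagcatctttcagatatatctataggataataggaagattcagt
The shared stretch is 10 bases long and begins 182 bases before the Cyp4a32 start and 56 bases before that of Cyp4a29. It counts exact matches in a row only, and the windows were not aligned, so their likeness was not measured. Promoters of the other genes with peaks were not compared, so the likeness of the closest copies is not shown. Cyp4a30b, another family member in that table to which no peak was assigned, shares at most 9 bases in a row with either. Windows of 300 bases, running 50 bases past the start, were searched on both strands. The PPAR element DR1, made of 2 copies of AGGTCA with 1 base of any kind between them, matched in none of the 3, either exactly (13 of 32851 promoters, 0.0396%) or with up to 2 mismatches (1268 promoters, 3.86%). A lone AGGTCA matched once in Cyp4a29 (16.3% of all promoters hold it). TATAAA matched once in Cyp4a32 (13.6% of all promoters). These letters say nothing of whether a factor binds there.

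Reads in peaks numbered 3238712 to 4679316 per refed library and 3205634 to 4850613 per fasted library. The median peak had 20 to 31 reads in refed and 19 to 33 in fasted libraries. Values are RPKM, the reads of a peak per kilobase of its width and per 1000000 reads in all peaks of the library, or for sums RPM, without the division by width. For marker genes, lower and higher peaks are those at an adjusted p under 0.05 (limma, Benjamini-Hochberg over all 74076 peaks), refed against fasted. Of all peaks, 0.427% were lower and 0.802% higher. Summed reads at 8 hepatocyte marker genes, all with peaks, were 1091 to 1119 RPM in refed and 1023 to 1164 in fasted libraries, with 3 of 99 peaks lower, at Alb, and 1 higher, at Apoa1. Of 5 periportal marker genes, all with peaks, the sum was 365 to 403 RPM in refed and 520 to 578 in fasted libraries, with 3 of 24 peaks lower, at Pck1 and Sds. Of 5 cholangiocyte marker genes 3 had peaks (Krt19 and Krt7 had none), with 100 to 107 RPM in refed and 79.0 to 91.7 in fasted libraries. The endothelial sum was 290 to 306 RPM in refed and 267 to 290 in fasted libraries, ranges that barely overlap, with higher peaks at Cdh5 and Pecam1 (2 of 42). The ranges of the pericentral, stellate, lymphocyte and Kupffer cell markers overlapped, with 2 of 33 pericentral peaks lower, at Cyp2e1. Of the Kupffer markers, Clec4f, Cd5l and Cd68 had no peak. The part of these sums in the Cyp4a differences was not tested.

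The 17 peaks of Cyp4a14, Cyp4a10, Cyp4a31 and Cyp4a32 were less accessible in refed than in fasted libraries with 1 exception, and the 13 peaks of Cyp4a12a, Cyp4a12b and Cyp4a29 showed no common direction. Summed over all 30 peaks, 80.9, 71.3 and 79.5 RPM were found in refed replicates 5, 7 and 8, against 181, 206 and 186 in fasted replicates 1, 3 and 4. The refed libraries all lay below the fasted ones. The means were 77.2 ± 5.18 in refed and 191 ± 13.3 in fasted libraries (SD, n = 3 each), a ratio of 0.404. For the 17 peaks of the 4 genes the means were 58.2 ± 4.11 and 174 ± 11.1 RPM in refed and fasted libraries, a 2.99-fold lower sum after refeeding. For the 12 peaks of Cyp4a12a and Cyp4a12b they were 16.7 ± 1.52 and 14.9 ± 3.12, and the groups overlapped. In bulk tissue, fewer cells with an open site and less opening in each cell cannot be told apart. The division into these gene groups was made after the values had been seen, and it follows position, since the 17 peaks form 1 stretch of 124319 bp that begins 71776 bp beyond the last Cyp4a12b peak.

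**Figure D1:**
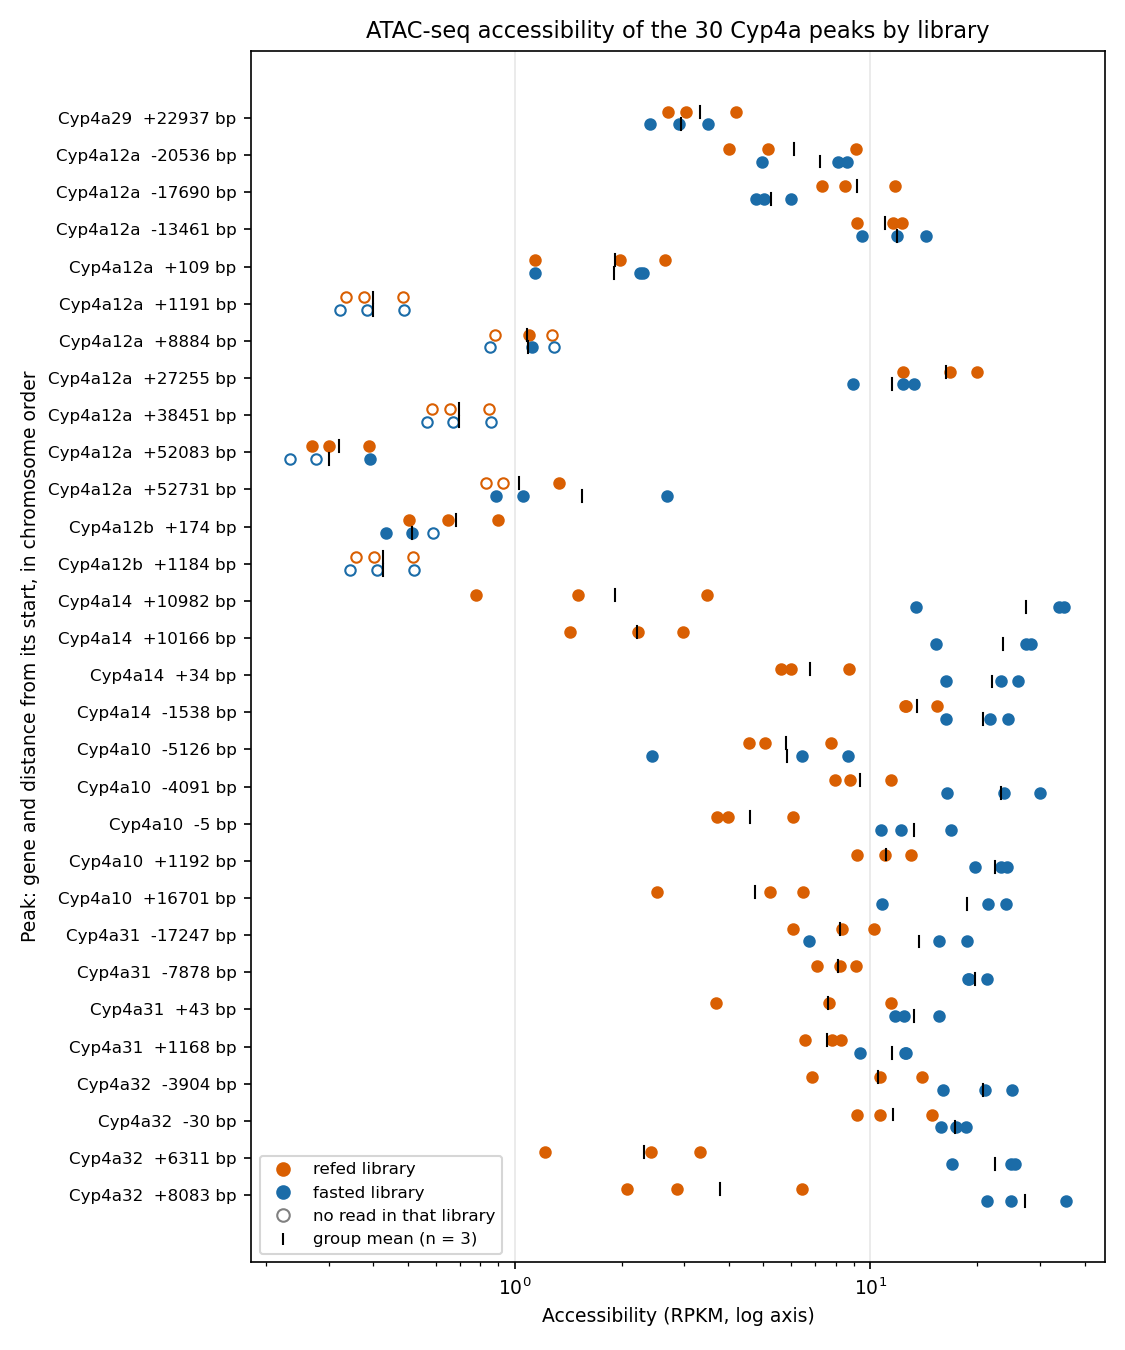
Accessibility (RPKM, log axis) of each of the 30 Cyp4a peaks in chromosome order, with refed libraries in orange above fasted libraries in blue; open circles are libraries without a read, which the authors set to the value of 0.9 reads, and ticks are group means (n = 3). Orange and blue separate at 15 of the 17 lower rows, from Cyp4a14 down, and lie furthest apart at both ends of that stretch.

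Of the 30 peaks, 6 were lower in refed libraries at an adjusted p under 0.05 (limma, Benjamini-Hochberg over all 74076 peaks) and 0 were higher, while 0.427% of all peaks were lower and 0.802% higher. On the recovered reads, edgeR gave an adjusted p to 19 of the 30 and made 11 lower and 0 higher (1.43% lower and 2.59% higher of 61067 peaks). DESeq2 gave one to 17 and made 7 lower and 0 higher (0.577% and 0.981% of 58103). The Cyp4a14 transcript-end peak was not among the DESeq2 calls. All calls were in the 17 peaks. At 15 of these 17, or 88.2%, every refed library lay below every fasted library, which held for 8.61% of all peaks. The median log2 difference, refed minus fasted, was -1.28 over the 17 peaks and 0.002 over all peaks. No reading is made of these counts, since the comparison chose the family. The authors' deposited table of called peaks, made with edgeR on these same libraries, lists 3314 of the 74076 peaks. Among them are 11 Cyp4a peaks, all within these 4 genes and with log2 fold changes between -3.75 and -0.98. They are the same 11 that edgeR made lower here, so the listing is not separate evidence.

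Cyp4a14, which encodes a lauric acid hydroxylase strongly induced by fasting and by PPARA ligands, lies on the minus strand, with its 3′ end at the edge of the stretch. Its far peak (chr4:115157457-115158071), 10982 bp downstream of the start in intergenic DNA on an L1 repeat, had 0.779, 1.51 and 3.47 RPKM in refed libraries, against 13.4, 35.0 and 33.8 in fasted libraries. Every refed value was far below the lowest fasted value, which came from fasted replicate 1. The log2 difference was -3.98 ± 0.59 (limma SE), the largest loss of all 74076 peaks, or a 14.3-fold lower mean RPKM. Set among all peaks, its mean stood at percentile 10.7 in refed and 78.6 in fasted libraries. The counts behind these values were 2, 3 and 10 reads in refed and 40, 69 and 85 in fasted libraries.

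The next peak, at the Cyp4a14 transcript end (chr4:115158473-115158688), had 2.22, 1.43 and 2.97 RPKM in refed libraries, against 15.3, 27.4 and 28.3 in fasted libraries. As at its neighbour, fasted replicate 1 was the lowest fasted library, refed replicate 8 the highest refed one, and the groups did not overlap. Its log2 difference of -3.43 ± 0.46 ranked 2 among all losses, on 2, 1 and 3 reads in refed and 16, 19 and 25 in fasted libraries. At the Cyp4a14 promoter (chr4:115168492-115168932) the values were 5.97, 5.60 and 8.72 RPKM in refed, against 16.4, 23.3 and 26.1 in fasted libraries. The promoter groups did not overlap either, at a smaller difference of -1.70 ± 0.33 on the log2 scale. The peak 1538 bp upstream of the start, the strongest of the gene by overall mean, had 12.5, 15.4 and 12.6 RPKM in refed libraries, against 24.4, 16.3 and 21.7 in fasted libraries. There the groups nearly touched, at 15.4 in refed replicate 7 and 16.3 in fasted replicate 3 (log2 difference -0.61 ± 0.25). Along Cyp4a14 the difference was larger at each peak farther downstream.

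Cyp4a10, the classic fasting-induced fatty acid hydroxylase of rodent liver, starts 22146 bp from the Cyp4a14 start on the plus strand, so that the genes stand head to head. Its promoter peak (chr4:115190694-115191081), centred 5 bp from the start, had 3.70, 3.98 and 6.06 RPKM in refed libraries, against 12.2, 16.9 and 10.7 in fasted libraries. The groups were separate (log2 difference -1.54 ± 0.41). The first-intron peak, 1192 bp after the start (chr4:115191817-115192351), had 13.0, 11.0 and 9.19 RPKM in refed, against 19.7, 23.3 and 24.2 in fasted libraries. It was the most accessible Cyp4a10 peak by the mean over both groups, though not in fasted libraries alone, and its spread within each group was small, with means of 11.0 ± 1.90 in refed and 22.4 ± 2.42 in fasted libraries (log2 difference -1.03 ± 0.25).

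The largest Cyp4a10 difference was at the peak 16701 bp downstream of the start, in intergenic DNA on an RMER17B element (chr4:115207451-115207736). It had 2.51, 6.48 and 5.23 RPKM in refed libraries, against 10.8, 24.0 and 21.4 in fasted libraries. As at the 3′ end of Cyp4a14, fasted replicate 1 was the lowest fasted library and still above every refed one. The log2 difference of -2.01 ± 0.46 ranked 31 among all losses. Of the upstream peaks, that at 4091 bp had means of 9.38 ± 1.83 in refed and 23.4 ± 6.74 RPKM in fasted libraries (log2 difference -1.29 ± 0.30). The peak at 5126 bp, on a simple repeat, was the exception among the 17, with 7.77, 4.55 and 5.04 RPKM in refed, against 2.43, 6.44 and 8.66 in fasted libraries, so that the groups overlapped (log2 difference 0.13 ± 0.54). Of these upstream neighbours, only the peak nearer to the start separated the groups.

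Cyp4a31, a close copy of Cyp4a10, had the smallest summed difference of the 4 genes. Its strongest peak, 7878 bp upstream of the start in intergenic DNA (chr4:115228071-115228681), had 8.23, 7.07 and 9.09 RPKM in refed libraries, against 21.3, 18.9 and 18.8 in fasted libraries. Both groups were tight, at means of 8.13 ± 1.01 and 19.7 ± 1.39 RPKM in refed and fasted libraries, and the log2 difference was -1.28 ± 0.28. Its promoter peak (chr4:115236172-115236422) had 11.4, 3.69 and 7.66 RPKM in refed, against 15.6, 12.4 and 11.7 in fasted libraries. Refed replicate 5 at 11.4 and fasted replicate 4 at 11.7 nearly met (log2 difference -0.94 ± 0.43). The first-intron peak, 1168 bp after the start, differed by -0.60 ± 0.35 without overlap. The peak 17247 bp upstream had 8.35, 6.05 and 10.2 RPKM in refed, against 6.74, 15.6 and 18.7 in fasted libraries, and overlapped because fasted replicate 1 was low.

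Cyp4a32, the last gene of the row, carried its largest differences inside the gene. The wide peak in intron 4 of 12, 6311 bp after the start (chr4:115278970-115280738, 1769 bp), had 1.22, 3.32 and 2.42 RPKM in refed libraries, against 25.5, 24.9 and 17.0 in fasted libraries. It rests on the most reads of the family, 9, 19 and 20 in refed and 219, 141 and 123 in fasted libraries. The groups were far apart, with a log2 difference of -3.37 ± 0.47, a 9.70-fold lower mean and rank 3 among all losses. A second peak in the same intron, on an ORR1B2 element 8083 bp after the start (chr4:115281477-115281775), had 6.41, 2.07 and 2.86 RPKM in refed, against 24.8, 35.5 and 21.3 in fasted libraries. It too was separate in all libraries (log2 difference -2.98 ± 0.45, rank 6).

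At the Cyp4a32 promoter (chr4:115273281-115273745) the difference was small beside that of intron 4, with 14.9, 10.6 and 9.19 RPKM in refed libraries, against 18.6, 17.4 and 15.8 in fasted libraries. The log2 difference was -0.60 ± 0.28, and the closest values of the groups were 14.9 in refed replicate 5 and 15.8 in fasted replicate 4. The peak 3904 bp upstream lay between, at means of 10.5 ± 3.53 in refed and 20.7 ± 4.53 RPKM in fasted libraries (log2 difference -1.02 ± 0.32).

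**Figure D2:**
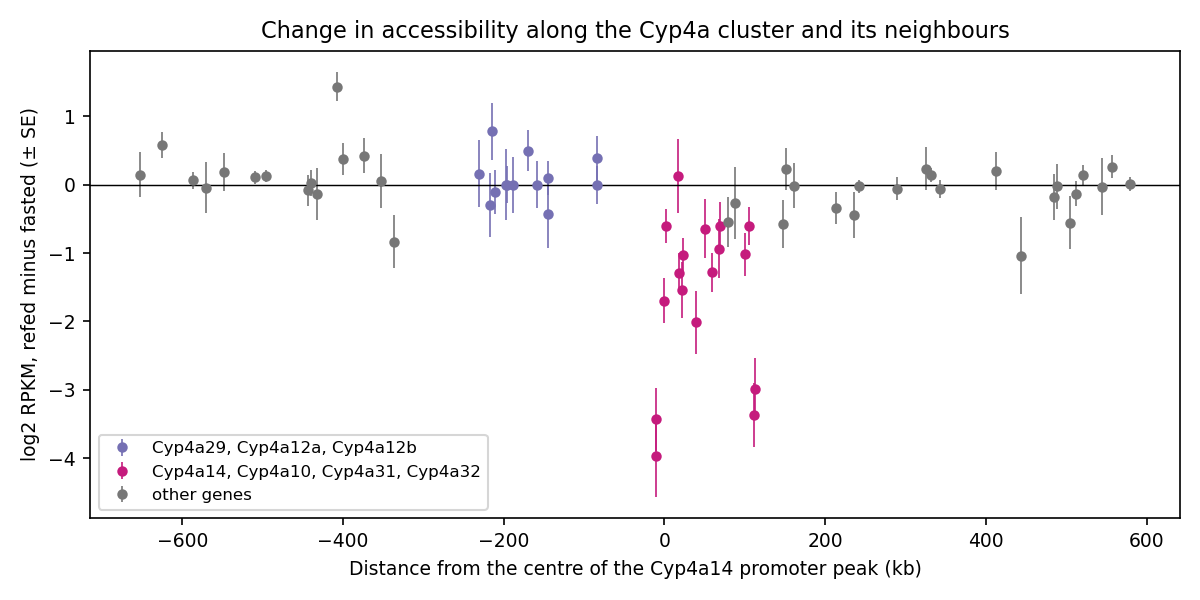
Log2 difference in RPKM, refed minus fasted, with limma's standard error, of each Cyp4a peak and of the other peaks up to 500 kb to either side, against distance from the Cyp4a14 promoter peak (kb). The peaks of Cyp4a14, Cyp4a10, Cyp4a31 and Cyp4a32 (magenta) lie below 0 except 1, the deepest at both ends of their stretch (-3.98 and -3.37), while those of Cyp4a29, Cyp4a12a and Cyp4a12b (violet) and of other genes (grey) scatter around 0.

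The share of a gene's reads that fell in its peaks farthest downstream was taken for Cyp4a14, Cyp4a32 and Cyp4a10. These peaks were picked for their large losses, so that a lower share after refeeding is built in and is a description only. Of the Cyp4a14 reads, the downstream and transcript-end peaks together held 10.5% (4 of 38), 11.8% (4 of 34) and 22.8% (13 of 57) in refed libraries, against 39.2% (56 of 143), 61.1% (88 of 144) and 56.1% (110 of 196) in fasted libraries. The Wilson 95% interval of refed replicate 8, the highest refed library, was 13.8% to 35.2%, and that of fasted replicate 1, the lowest fasted library, was 31.5% to 47.3%. Of the Cyp4a32 reads, the intron 4 peaks held 21.3% (17 of 80), 42% (21 of 50) and 32.9% (24 of 73) in refed libraries, against 69.3% (255 of 368), 75.8% (175 of 231) and 65.1% (149 of 229) in fasted libraries. The intervals of the nearest libraries were 29.4% to 55.8% in refed replicate 7 and 58.7% to 71.0% in fasted replicate 4. For the peak downstream of Cyp4a10 the share was 3.95%, 11.8% and 10% in refed, against 8.57%, 16.5% and 17.2% in fasted libraries, and the groups overlapped. The intervals cover counting error only.

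**Figure D3:**
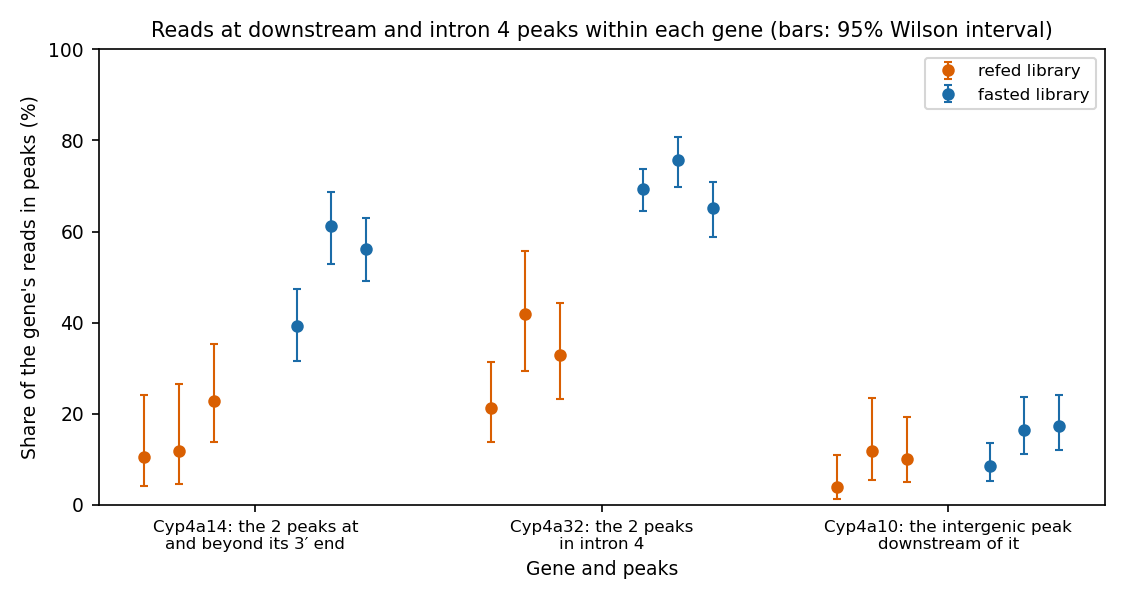
Share (%) of each gene's reads in peaks that fell in the Cyp4a14 end peaks, the Cyp4a32 intron 4 peaks and the downstream Cyp4a10 peak, for refed (orange) and fasted (blue) libraries, with 95% Wilson intervals. The Cyp4a14 and Cyp4a32 shares are lower in each refed library than in any fasted one, and those of Cyp4a10 overlap.

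Cyp4a12a, the male-predominant hydroxylase, had 10 peaks, of which the 3 upstream ones and 1 exonic peak carried most of its reads. The strongest, in exon 5 of 12 and 27255 bp after the start (chr4:114998768-114999044), had 19.9, 16.7 and 12.3 RPKM in refed libraries, against 8.93, 12.4 and 13.2 in fasted libraries. The groups overlapped (log2 difference 0.50 ± 0.30). The largest difference was at the peak 17690 bp upstream (chr4:114953798-114954125), on an IAP repeat, with 7.30, 8.47 and 11.7 RPKM in refed, against 5.03, 4.76 and 5.97 in fasted libraries. This was the only Cyp4a peak at which every refed library exceeded every fasted one, as 10.6% of all peaks did, with a log2 difference of 0.78 ± 0.42 on 5 to 18 reads per library. The peaks 20536 bp and 13461 bp upstream differed by -0.30 ± 0.47 and -0.10 ± 0.32 and overlapped. At its own start, in exon 1, Cyp4a12a had 6, 2 and 5 reads in refed and 3, 4 and 5 in fasted libraries, a low level in both groups.

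Several peaks of the Cyp4a12 copies were listed with almost no uniquely mapped reads. Of the 13 peaks of Cyp4a12a, Cyp4a12b and Cyp4a29, 7 had at most 2 reads in every library. The first-intron peaks of Cyp4a12a (1191 bp after its start) and Cyp4a12b (1184 bp) and the Cyp4a12a peak 38451 bp downstream had 0 reads in all 6 libraries, which allows up to 3 reads per library, as was so for 5.04% of all peaks. Cyp4a12b had 1, 1 and 2 reads in refed and 1, 0 and 1 in fasted libraries at its exon 1 peak and none at its other, too few for a comparison. The single Cyp4a29 peak, 22937 bp downstream of its start, had 2.69, 3.04 and 4.20 RPKM in refed, against 2.90, 3.51 and 2.40 in fasted libraries. Here the groups overlapped in part. A mean of at least 10 reads was reached by 16 of the 17 peaks of the other 4 genes, by 3 of these 13 and by 81.7% of all peaks. Repeats underlay 4 of the 17 and 8 of the 13 peaks, 4 of the 8 being young L1Md elements, and 26.5% of all peaks. The part of mapping between copies in these low counts was not tested.

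Per kilobase of peak, refed libraries ranked Cyp4a31 first (7.91 ± 1.05 RPKM), followed by Cyp4a10 (7.71 ± 0.799), Cyp4a14 (6.19 ± 0.902) and Cyp4a32 (5.37 ± 0.674), and neighbours in this order overlapped. Below them and separate stood Cyp4a12a (3.89 ± 0.349), which overlapped Cyp4a29 (3.31 ± 0.792). In fasted libraries Cyp4a14 ranked first (23.8 ± 5.78), with Cyp4a32 (21.8 ± 3.38) and Cyp4a10 (17.8 ± 1.57) each overlapping the next. Cyp4a31 (15.0 ± 0.501) was separate from those above it in the order and from Cyp4a12a below (3.52 ± 0.756), which overlapped Cyp4a29 (2.94 ± 0.551). By their means alone, Cyp4a14 and Cyp4a32 stood at the top in fasted libraries and lowest of the 4 in refed libraries. Neighbours among the 4 overlapped in both orders, apart from Cyp4a31 in fasted libraries. The ratios of the summed reads, refed over fasted, were 0.246 for Cyp4a32, 0.260 for Cyp4a14, 0.433 for Cyp4a10, 0.528 for Cyp4a31 and 1.11 for Cyp4a12a. All these levels rest on uniquely mapped reads, and the peak width of Cyp4a12a includes peaks without a read. The part of mapping between copies in the order of the genes was not tested.

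**Figure D4:**
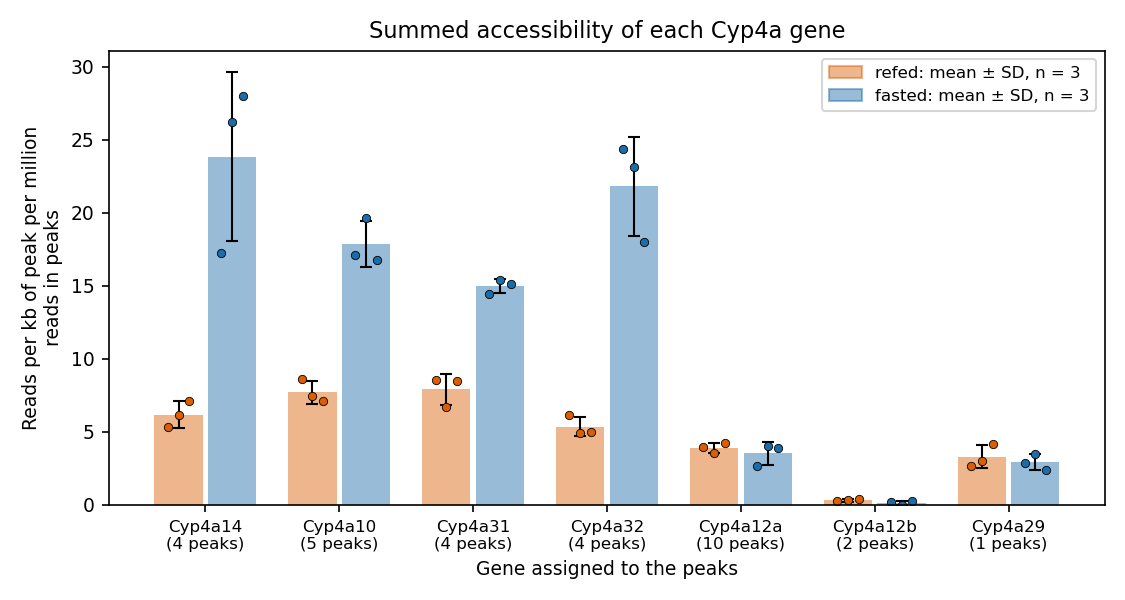
Summed accessibility of each gene (reads per kilobase of its peaks per 1000000 reads in peaks) as mean ± SD of 3 refed (orange) and 3 fasted (blue) libraries, with a point per library. The refed bars of Cyp4a14, Cyp4a10, Cyp4a31 and Cyp4a32 lie between 5.37 and 7.91 and their fasted bars between 15.0 and 23.8, while the libraries of the other 3 genes overlap between groups. Only uniquely mapped reads count, and the peak widths of Cyp4a12a and Cyp4a12b include peaks without a read.

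Position within the gene was shared by peaks of several copies. A peak in intron 1, 1000 to 1200 bp after the start, was present in Cyp4a10, Cyp4a31, Cyp4a12a and Cyp4a12b; 178 of all 74076 peaks (0.24%) are placed so. Those of Cyp4a12a and Cyp4a12b held no read in any library, so only those of Cyp4a10 and Cyp4a31 had a measured level. By annotation 15 of the 30 peaks were intergenic, 7 intronic, 4 at promoters, 3 exonic and 1 at a transcript end. In the 4 genes that were lower after refeeding, the median log2 difference was -1.24 at the 4 promoter peaks, -1.15 at the 8 intergenic peaks and -2.01 at the 4 intron peaks. The intron median lies between the intron 4 peaks of Cyp4a32 (-3.37 and -2.98) and the first-intron peaks of Cyp4a10 (-1.03) and Cyp4a31 (-0.60). No library alone was the lowest or the highest throughout. Of the 17 peaks, fasted replicate 1 was the lowest fasted library at 7, replicate 4 at 8 and replicate 3 at 2, while refed replicate 5 was the highest refed library at 7, replicate 8 at 6 and replicate 7 at 4.

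Peaks of other genes in the same region centred on no difference. Within 500 kb on either side, and between the Cyp4a peaks, 37 peaks of 20 other genes were tested. None was lower and 1 was higher at an adjusted p under 0.05 (limma), with 2 at an unadjusted p under 0.05 and 1 called by edgeR and by DESeq2 each. Of all peaks, 0.427% were lower and 0.802% higher in limma. At such shares 37 peaks would hold few calls anyway, so these counts do not show where the difference ends. Their median log2 difference was -0.01. The called peak, in the 5′ UTR of Pdzk1ip1 (chr4:114761146-114761925), a membrane protein gene 175346 bp before the first Cyp4a peak, had 32.5, 38.8 and 26.0 RPKM in refed, against 11.9, 12.0 and 11.6 in fasted libraries. It rose by 1.44 ± 0.21 on the log2 scale (limma adjusted p = 0.00856), although the call was not kept without an intensity trend (limma adjusted p = 0.0691) or after quantile normalization (limma adjusted p = 0.0563). The other alternatives kept it.

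The nearest genes on both sides are P450 relatives. Before the cluster, the Cyp4x1 peak 25236 bp from its start had means of 7.42 ± 2.55 in refed and 12.8 ± 2.57 RPKM in fasted libraries (log2 difference -0.83 ± 0.39, limma adjusted p = 0.352). After the cluster, 34121 bp beyond the last Cyp4a32 peak, the intron peak of Cyp4b1 had 8.44 ± 0.525 in refed and 12.9 ± 3.46 RPKM in fasted libraries (log2 difference -0.57 ± 0.35, limma adjusted p = 0.492). Between Cyp4a31 and Cyp4a32, the pseudogene Cyp4b1-ps2 had 2 peaks. The one 7627 bp from its start, inside the last Cyp4a31 intron, had 8.26, 8.19 and 9.64 RPKM in refed, against 19.7, 9.93 and 10.4 in fasted libraries (log2 difference -0.55 ± 0.36, limma adjusted p = 0.542). None of these peaks passed the test, and none of their differences reached the -1.28 that was the median of the 17 peaks.

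Outside the family, peaks whose log2 RPKM closely followed the log2 of the summed Cyp4a reads over the 6 libraries lay near Bcl9 (Pearson r = 0.999), Lrig1 (0.997), Mocs1 (0.996) and Slc5a11 (0.995). They were among the 5 closest of 60468 peaks with a mean of at least 10 reads, 1 peak per gene. These 4 had a log2 difference below 0, from -0.19 ± 0.17 at Mocs1 to -0.95 ± 0.25 at Slc5a11. With 6 libraries in 2 groups, such values describe a shared difference between groups and no more.

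Genes that work with Cyp4a in fatty acid oxidation were examined in 3 lists, and male-biased genes in another, all put together with earlier results of these libraries known. In omega oxidation, 18 of 19 genes had 81 peaks, of which 0 were lower and 2 higher (2.47%), both in intron 1 of Cyb5r3, the reductase that passes electrons to cytochrome b5. The one with the larger difference had 43.4 ± 3.94 in refed and 20.1 ± 3.94 RPKM in fasted libraries (log2 difference 1.13 ± 0.17, limma adjusted p = 0.00998). The list's median was -0.05. The promoters of Por, the P450 reductase, and Cyp4f14, another omega hydroxylase gene, differed by -0.01 ± 0.07 (limma adjusted p = 0.999) and 0.39 ± 0.17 (limma adjusted p = 0.308).

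In peroxisomal oxidation, 19 genes had 102 peaks, of which 1 was lower (0.980%) and 1 higher (0.980%), at a median of -0.05. The lower peak, in intron 3 of the thiolase gene Acaa1a, had 22.7 ± 7.04 in refed and 43.8 ± 3.13 RPKM in fasted libraries and fell by 1.00 ± 0.21 on the log2 scale (limma adjusted p = 0.0366). The higher peak lay 18737 bp upstream of Scp2, which encodes a thiolase and sterol carrier, with 26.8 ± 1.36 in refed and 10.3 ± 2.33 RPKM in fasted libraries (log2 difference 1.40 ± 0.25, limma adjusted p = 0.0187). The promoter of Ehhadh, the bifunctional enzyme of the pathway, differed by 0.10 ± 0.13 on the log2 scale and did not pass (limma adjusted p = 0.818).

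In the list of PPARA, its partners and other known targets, 23 genes had 184 peaks, of which 7 were lower (3.80%) and 1 higher (0.543%), at a median of -0.08. The lower peaks belonged to Acadm, Angptl4, Creb3l3, Fabp1, Pdk4, Ppargc1a and Rxra. Angptl4, an inhibitor of lipoprotein lipase, had 5.90, 16.7 and 6.32 RPKM in refed, against 27.4, 27.7 and 30.1 in fasted libraries at its intron 6 peak (log2 difference -1.73 ± 0.35, limma adjusted p = 0.0339). Every refed library lay below every fasted one, refed replicate 7 being the closest. Rxra, the partner of PPARA, had 31.5 ± 4.60 in refed and 48.6 ± 2.40 RPKM in fasted libraries at an intron 1 peak (log2 difference -0.64 ± 0.13, limma adjusted p = 0.0357). Ppargc1a, a coactivator, had 9.39 ± 1.08 in refed and 23.0 ± 5.89 RPKM in fasted libraries at an intron 2 peak (log2 difference -1.27 ± 0.28, limma adjusted p = 0.0437). At the remaining lower peaks, the log2 difference ran from -1.34 at Acadm, the medium-chain acyl-CoA dehydrogenase gene, (limma adjusted p = 0.0224) to -0.76 at Creb3l3, a fasting-induced transcription factor gene (limma adjusted p = 0.0434), with Pdk4, a brake on pyruvate oxidation, at -1.30 (limma adjusted p = 0.0304). Fabp1, the liver fatty acid binding protein gene, was lower at its transcript end (-0.95 ± 0.21, limma adjusted p = 0.0488) and higher 26810 bp upstream (0.61 ± 0.12, limma adjusted p = 0.0339). The promoter of Ppara itself had 70.3 ± 6.24 in refed and 81.2 ± 7.71 RPKM in fasted libraries (log2 difference -0.21 ± 0.09, limma adjusted p = 0.315).

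Of the male-biased genes, to which Cyp4a12a is known to belong, 13 had 117 peaks, with 0 lower and 1 higher (0.855%), at Mup3, a major urinary protein gene, which had 27.9 ± 4.14 in refed and 13.9 ± 1.49 RPKM in fasted libraries (log2 difference 1.00 ± 0.21, limma adjusted p = 0.0378). The 3 oxidation lists and the male-biased list together held 484 peaks, of which 8 were lower (1.65%) and 5 higher (1.03%), beside 0.427% and 0.802% of all peaks.

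These 13 calls depended on the tool and on single libraries. All 13 were lost without the intensity trend and after quantile normalization. In edgeR 2 were lost, at Rxra (edgeR adjusted p = 0.138) and Creb3l3 (edgeR adjusted p = 0.0849). In DESeq2 7 were lost, at Rxra (DESeq2 adjusted p = 0.500), Creb3l3 (0.370), Acaa1a (0.0723), Angptl4 (0.0764), the Fabp1 transcript end (0.216) and both Cyb5r3 peaks (0.0759 for that with the larger difference and 0.235 for the other). With a fasted library left out, the lists held 6 lower and 9 higher peaks (replicate 1 out), 4 lower and 4 higher (replicate 3 out), or 0 lower and 2 higher (replicate 4 out). With a refed library left out, they held 3 lower and 2 higher peaks (replicate 5 out), 4 lower and 1 higher (replicate 7 out), or 1 lower and 1 higher (replicate 8 out). With libraries left out, the Cyb5r3 peak with the larger difference was called in 6 of 6 limma fits, with limma adjusted p between 0.00815 and 0.0468. The Acadm peak was called in 5, missing without fasted replicate 4 (limma adjusted p = 0.0738), and the other Cyb5r3 peak in 4. Those of Acaa1a, Scp2, Rxra and Pdk4 were called in 2 fits, those of Angptl4, Creb3l3 and Mup3 and the upstream Fabp1 peak in 1, and those of Ppargc1a and the Fabp1 transcript end in 0. The Pdzk1ip1 peak near the Cyp4a genes was called in 6 of 6, with limma adjusted p up to 0.0499.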

How the data were processed

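ATAC-seq of mouse liver was analysed in 3 refed and 3 fasted libraries, grouped by their labelled treatment. The submitters' processing notes name mm9 and the tools HOMER, MACS2, Bowtie2, SAMtools, cutadapt, FastQC and DESeq2. Tool versions and settings were not given in the sources used here, nor was any shift of reads for the transposase. According to the file headers, unique reads without duplicates were counted over 1 merged set of peaks.

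The authors' deposited table holds RPKM per peak and library and their log2, with an empty peak set to 0.9 reads, which makes low fold changes smaller. Whole read counts were recovered from the deposited RPKM (tolerance 0.01 reads) at 100% of peaks and equalled the authors' counts at all 3314 peaks listed with edgeR, a table that also holds their p-value and log2 fold change. The deposited ratio and coverage signal columns were not used for results.

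The test was limma 3.58.1 (R 4.3.3, intensity trend) on log2 RPKM of all 74076 peaks, refed minus fasted, adjusted by Benjamini-Hochberg, called at 0.05. edgeR 4.0.16 and DESeq2 1.42.0 on recovered reads, other scalings, filters and weights, and each library left out were alternatives. Errors on log2 differences are limma's SE; means carry the SD of 3 libraries. Per gene, the peaks named were the one with the largest difference, the one nearest the start and the strongest; other peaks are given more briefly. The family, the gene lists and the peaks named were chosen with earlier results of these data known. Some genes that the rules name are not reported here; they remain in the counts.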

Additional observations from a re-analysis of the deposited data

How the results depend on the processing

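Log2 differences were recomputed only for the Cyp4a peaks with the largest difference, nearest the start or strongest in their gene. Of these 211 values, 208 moved by less than 1 SD and 203 kept their sign. The 8 that changed sign belonged to the Cyp4a12a exon 1 peak, at 0.002, and the Cyp4a29 peak, at 0.16. Other Cyp4a peaks, such as the exception 5126 bp upstream of Cyp4a10, are not covered by these counts. The number of Cyp4a peaks called lower, 6 in limma, was 0 without the intensity trend, 1 after quantile normalization, 3 with only peaks above the first quartile (which left the 4 peaks of largest loss out of the test), 12 with array weights and 11 in edgeR, and 4 to 6 with a library left out; the number called higher was 0 in all of these. The 2 end peaks of Cyp4a14 and the 2 intron 4 peaks of Cyp4a32 were called in 6 of 6 fits without a library, the Cyp4a14 promoter in 2 (lost without fasted replicate 3 or 4 or refed replicate 7 or 8) and the upstream Cyp4a31 peak in 0. The ratio of summed Cyp4a reads, 0.404, was 0.394 to 0.421 without a library and 0.483 without the wide Cyp4a32 peak.

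Over all peaks, 316 lower and 594 higher became 0 and 0 without the trend, 23 and 71 after quantile normalization, 3162 and 6524 with array weights, 876 and 1581 in edgeR, and 607 lower after median centring; without a library they were 48 to 211 and 77 to 970. Neighbour peaks called higher, 1, were 0 without the trend and after quantile normalization and 3 with array weights, which also called 1 lower. In the pathway lists, 8 lower and 5 higher became 0 and 0 without the trend and after quantile normalization, 42 and 44 with array weights, 19 and 14 in edgeR, and 19 lower after median centring; without a library they were 0 to 6 and 1 to 9. Of 196 differences of other named peaks, 90 kept their direction without passing. The cause of these shifts was not tested, though a fit without a library has fewer samples. No paired analysis was possible because the groups share no replicate number. The median peak had 19 to 33 reads per library, and peaks with few reads, such as those of Cyp4a12b, could not be compared.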
